A study of Bos taurus with 48 samples.

Results

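CDC40 (ENSBTAG00000000409) and LRPPRC (ENSBTAG00000016368) are 2 of the 18206 bovine genes that had at least 1 count in leukocyte RNA from weaned and control beef calves. Both were chosen by name from earlier results of these counts, so that their own levels and changes are given as a description, with standard errors and without a p-value. Where either is said to be among the genes called in a fit, this too is a description, and nothing is read from it. CDC40, the counterpart of yeast Prp17, is a WD repeat protein of the spliceosome that acts at the second of its catalytic reactions, in which the exons are joined. LRPPRC is a pentatricopeptide repeat protein of mitochondria. It forms a complex with SLIRP that binds mitochondrially encoded mRNAs, keeps them stable and aids their polyadenylation, and inherited loss of its function causes a form of Leigh syndrome with a shortage of cytochrome c oxidase. Both proteins are part of the general RNA metabolism of cells and neither is known as a leukocyte marker.

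The calves were male, of the Continental type per the labels (Simmental per the study). All 12 were moved from pasture into a shed on d 0. The 6 control calves were housed with their dam, and the 6 weaned calves were separated from their dam at housing and penned with other weaned calves, so that every value after d 0 in either group also includes housing. Both groups had been immunised beforehand. Total leukocytes were taken from the same calves on d 0 (before housing), 1, 2 and 7, which gave 48 libraries in 8 groups of 6 that are named here by calf number. These are bulk samples, in which fewer cells of a type and less RNA per cell cannot be told apart.

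Total counts were 1662995 to 4256011 per library with a median of 3600161, and the 2 smallest libraries were those of control calf 1759 on d 2 and d 7. Several libraries stood apart from the d 0 library of the same calf. Over 10902 to 11183 genes, the deviations of the d 0 library from its group mean were negatively correlated with those of the same calf on d 1 for control calf 1763 (r = -0.52), on d 7 for control calf 1755 (r = -0.12) and on d 2 and d 7 for weaned calf 1758 (r = -0.35 and -0.44). Over all 48 libraries the highest level of both genes was in calf 1758, the lowest CDC40 in calf 1763 and the lowest LRPPRC in calf 1759. Results are given with and without such a calf where they turn on it. Whether any library was assigned to the wrong calf was not tested, since this needs genotypes, so that the changes within these calves rest on their labels. Of the 44 marker genes listed for 8 blood cell types, only 6 could be identified in the table. No list had more than 60% of its members identified, which makes a check of the labelled tissue and of cell composition by these genes void. The study's blood counts, from more calves than were sequenced, gave a higher neutrophil and lower lymphocyte percentage in weaned calves on d 1. In control calves on d 7 it marked neither percentage as different from baseline. The part of cell composition in the levels of CDC40 and LRPPRC was not tested.

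Levels are given as CPM, the reads of a gene scaled to the library total and, between libraries, by TMM factors. CDC40 was measured by 19 to 373 reads per library, and its CPM ranged from 11.6 to 89.2 with a median of 23.5 over the 48 libraries. In control calves on d 0 the lowest CDC40 level was 17.8 CPM (calf 1789), the median 28.0 and the highest 54.0 (calf 1755). On d 1 they ran from 11.6 CPM (calf 1763) over a median of 20.4 to 72.6 (calf 1755), and on d 2 from 12.9 (calf 1759) over 24.3 to 34.2 (calf 1789). On d 7 all 6 control libraries lay between 12.3 CPM (calf 1759) and 18.0 (calf 1803), with a median of 12.8. The control calves were thus closest to each other on d 7, where the mean was 14.3 CPM ± 2.71 (SD, n = 6) against 32.7 ± 15.3 on d 0.

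In weaned calves CDC40 was lowest on d 0, from 14.0 CPM (calf 1809) over a median of 20.9 to 32.1 (calf 1769). On d 1 the levels ran from 19.5 CPM (calf 1809) over a median of 29.3 to 81.0 (calf 1773). On d 2 they ran from 21.3 CPM (calf 1773) over 23.2 to 89.2 (calf 1758), and on d 7 from 15.1 (calf 1809) over 25.2 to 79.8 (calf 1758). On each day after housing 1 weaned calf stood far above the other 5, and this was calf 1773 on d 1 and calf 1758 on d 2 and d 7. Without that calf the weaned mean was 28.4 CPM ± 5.54 on d 1, 23.2 ± 1.75 on d 2 and 22.8 ± 5.15 on d 7 (SD, n = 5), against 37.2 ± 22.0, 34.2 ± 27.0 and 32.3 ± 23.7 with it (SD, n = 6).

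LRPPRC was measured by 31 to 630 reads per library, and its CPM ranged from 18.1 to 150.6 with a median of 42.4. In control calves it lay between 35.9 CPM (calf 1789) and 94.5 (calf 1755) on d 0 with a median of 55.0, and between 21.7 (calf 1763) and 120.1 (calf 1755) on d 1 with a median of 40.0. On d 2 it lay between 31.4 CPM (calf 1759) and 54.9 (calf 1763) with a median of 46.8, and on d 7 between 18.1 (calf 1759) and 39.5 (calf 1803) with a median of 26.0. Over the 24 control libraries the log2 levels of the genes had a Pearson correlation of 0.95.

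In weaned calves LRPPRC ran from 25.9 CPM (calf 1809) to 64.2 (calf 1762) on d 0 with a median of 37.5. It ran from 37.2 CPM (calf 1809) to 126.0 (calf 1773) on d 1 with a median of 47.9, from 34.1 (calf 1773) to 150.6 (calf 1758) on d 2 with a median of 39.6, and from 20.5 (calf 1809) to 146.2 (calf 1758) on d 7 with a median of 43.2. The extremes after housing were again calves 1773 and 1758 at the top and calf 1809 on d 1 and d 7 at the bottom.

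**Figure D1:**
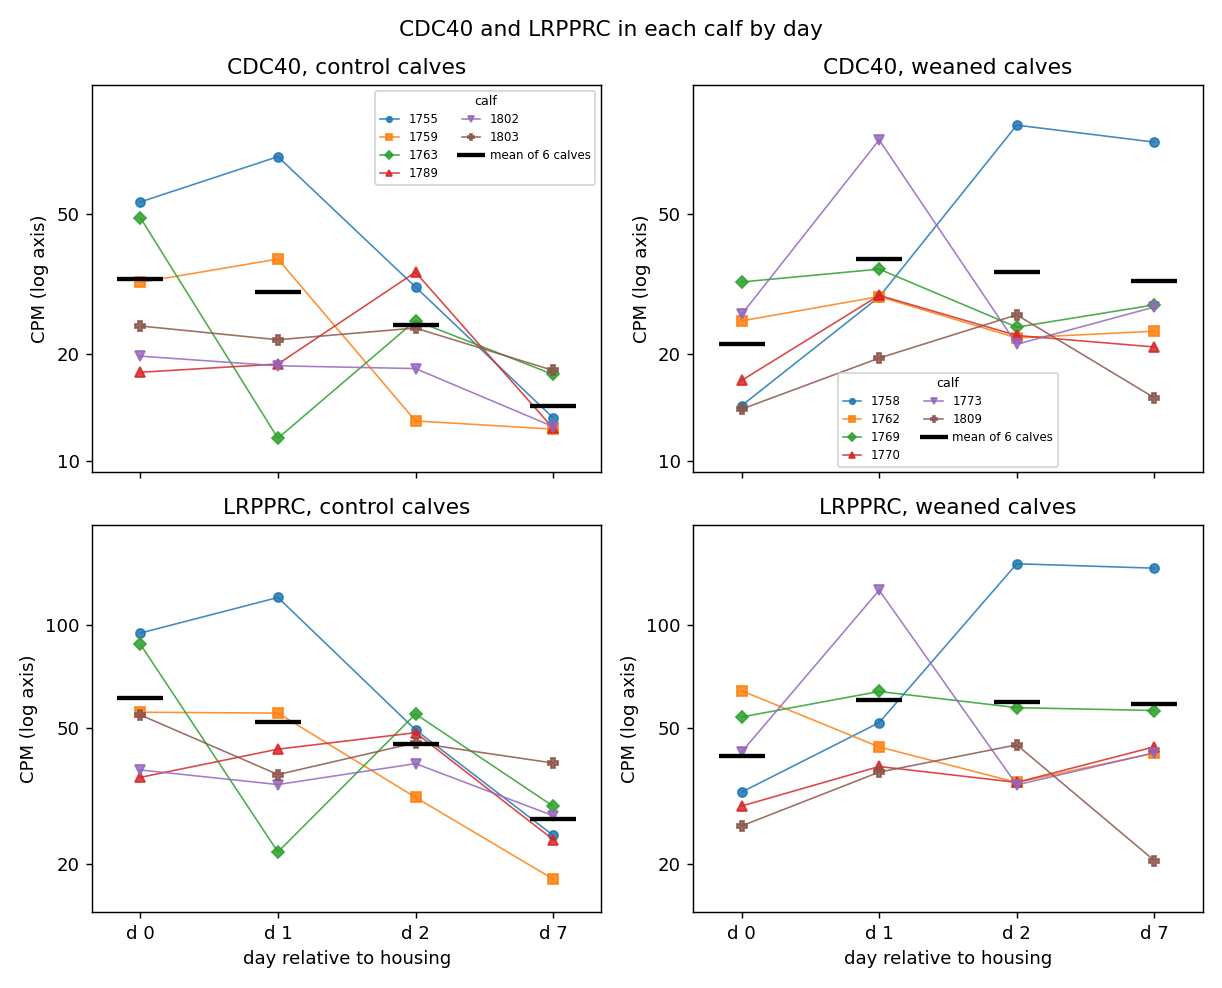
Levels of CDC40 (top) and LRPPRC (bottom) in CPM on a log axis by day relative to housing, in control calves (left) and weaned calves (right); each line is 1 calf and each black bar the mean of 6 calves. CDC40 in control calves comes together at low levels on d 7, between 12.3 and 18.0 CPM. LRPPRC in control calves is also low on d 7 but closer together on d 2 (highest over lowest 2.18 and 1.75). Weaned calves 1773 on d 1 and 1758 on d 2 and d 7 stand above the other weaned calves.

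The largest difference between days was in control calves between d 0 and d 7. CDC40 was lower on d 7 than on d 0 in 6 of 6 control calves, by 1.34-fold (calf 1803) to 4.09-fold (calf 1755), and LRPPRC in 6 of 6, by 1.36-fold (calf 1802) to 3.89-fold (calf 1755). Of all 13829 genes tested, 13.2% were lower in every control calf on d 7. For both genes 5 of the 6 d 7 libraries lay below all d 0 libraries, so that the groups overlapped by 1 calf, number 1803. The fitted log2 change was -1.15 (SE 0.27) for CDC40 and -1.12 (SE 0.24) for LRPPRC. The median over all genes in that fit was 0.05.

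Both genes were among the 515 genes called in this comparison (3.72% of 13829) by the quasi-likelihood F-test of edgeR. A call needed an adjusted p (Benjamini-Hochberg) below 0.05 and a 2-fold or larger change. Of these genes 453 were lower on d 7, which is 3.28% of the genes tested, and 62 were higher. The number of genes called fell to 0 without calf 1755, 1759 or 1763 and with the total count as a covariate, to 1 with all 48 libraries in 1 fit and to 11 with the flowcell as a block, and neither gene was called in these fits. The log2 change itself stayed between -0.94 (without calf 1755) and -1.30 (without calf 1803) for CDC40 and between -0.94 and -1.29 for LRPPRC over 16 alternatives.

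Measures of the whole library differed between the same days. In control calves the total count averaged 3438428 ± 302087 on d 0 and 3086904 ± 668534 on d 7, and the number of genes with at least 1 count 14145 ± 211 and 13792 ± 347. The 1000 genes with the most counts in a library held 39.9% ± 1.20 of its counts on d 0 and 42.8% ± 2.70 on d 7 (all SD, n = 6). Of the 6 marker genes identified, HBB (a globin of red cells) had a log2 change of 1.20 (SE 0.42) and KLRK1 (the NKG2D receptor of cytotoxic cells) of -0.86 (SE 0.35) from d 0 to d 7, and neither was called. IL5RA (eosinophils), PPBP (platelets) and ALAS2 (red cell precursors) had -0.27 (SE 0.58), 0.16 (SE 0.58) and 0.64 (SE 0.57), and SLC4A1 had too few counts to be tested. The part of these in the lower levels of CDC40 and LRPPRC was not tested.

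On d 1 and d 2 the levels in control calves overlapped those of d 0 widely. CDC40 was higher than on d 0 in 3 and lower in 3 of the 6 control calves on d 1, with a log2 change of -0.12 (SE 0.41), and LRPPRC was lower in 4 of 6, with -0.24 (SE 0.36). Calf 1763 went from 48.7 to 11.6 CPM of CDC40 and from 87.7 to 21.7 CPM of LRPPRC within that day. Without calf 1763 the change was 0.18 for CDC40 and 0.04 for LRPPRC. On d 2 the log2 change from d 0 was -0.39 (SE 0.28) for CDC40, lower in 5 of 6 calves, and -0.41 (SE 0.22) for LRPPRC, lower in 4 of 6. The quasi-likelihood F-test called 0 of 13934 genes (0%) on d 1 and 0 of 13859 (0%) on d 2, with 107 and 705 genes at an unadjusted p under 0.05. The DESeq2 Wald test called 0 on both days and the edgeR exact test with a common dispersion 0 and 18.

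In weaned calves the fitted changes from d 0 were positive for both genes on each later day. CDC40 was higher on d 1 than on d 0 in 6 of 6 weaned calves, from 1.09-fold (calf 1769) to 3.12-fold (calf 1773), where 3.31% of 14038 genes were higher in every calf. LRPPRC was higher in 5 of 6, the exception being calf 1762 with 64.2 CPM on d 0 and 44.0 on d 1. The log2 changes were 0.78 (SE 0.31) for CDC40 and 0.53 (SE 0.30) for LRPPRC, and 0.47 and 0.19 without calf 1773. The d 1 libraries overlapped those of d 0, since 2 of 6 for CDC40 and 1 of 6 for LRPPRC lay above all d 0 libraries. The quasi-likelihood F-test called 0 genes (0%) here, with 1454 at an unadjusted p under 0.05, DESeq2 called 1 and the exact test 64. With the calf as a replicate block 2 genes were called, neither of them CDC40 or LRPPRC.

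The higher weaned means on d 2 and d 7 rested on calf 1758. Its CDC40 went from 14.3 CPM on d 0 over 29.1 on d 1 to 89.2 on d 2 and 79.8 on d 7, and its LRPPRC from 32.5 over 51.8 to 150.6 and 146.2. In the other 5 weaned calves CDC40 on d 7 was between 1.16-fold lower (calf 1769) and 1.24-fold higher (calf 1770) than on d 0. Against d 0 the log2 changes on d 2 were 0.67 (SE 0.37) for CDC40 and 0.51 (SE 0.36) for LRPPRC, and 0.02 and -0.07 without calf 1758. On d 7 they were 0.58 (SE 0.36) and 0.48 (SE 0.38), and -0.00 and -0.08 without it. The quasi-likelihood F-test called 0 of 13984 genes (0%) on d 2 and 0 of 14026 (0%) on d 7, with 295 and 373 at an unadjusted p under 0.05, DESeq2 called 0 and 1, and the exact test 62 and 38.

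The comparison of weaned with control calves asks what separation from the dam and penning with other weaned calves add to housing. The separation and the penning cannot be told apart. Before housing, on d 0, CDC40 was lower in the calves to be weaned, with a mean of 21.3 CPM ± 7.38 against 32.7 ± 15.3 (SD, n = 6) and a log2 difference of -0.60 (SE 0.30). LRPPRC differed by -0.55 (SE 0.27), with a median of 37.5 CPM against 55.0. For each gene 3 of the 6 weaned calves lay below all control calves. On d 1 the log2 difference was 0.29 (SE 0.42) for CDC40 and 0.20 (SE 0.38) for LRPPRC, and on d 2 it was 0.45 (SE 0.35) and 0.37 (SE 0.32). The differences on d 1 and d 2 were smaller than 1.5 times their SE and changed sign when 1 calf was left out, to -0.09 and -0.14 on d 1 without calf 1773 and to -0.09 and -0.14 on d 2 without calf 1758. With the flowcell as a block the d 1 differences were 0.97 for CDC40 and 0.77 for LRPPRC and the d 2 differences were -0.07 for CDC40 and -0.19 for LRPPRC, and with the total count as a covariate the d 1 differences were -0.32 and -0.45.

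On d 7 weaned calves lay above control calves for both genes, with 5 of 6 weaned libraries above all control libraries and calf 1809 within their range. CDC40 averaged 32.3 CPM ± 23.7 against 14.3 ± 2.71 and LRPPRC 58.6 ± 44.5 against 27.1 ± 7.22 (SD, n = 6). The log2 difference was 1.15 (SE 0.34) for CDC40 and 1.08 (SE 0.35) for LRPPRC. Without calf 1758 it was 0.66 and 0.58, and without calf 1809 it was 1.29 and 1.25. The median of CDC40 in weaned calves was 20.9 CPM on d 0 and 25.2 on d 7, and in control calves 28.0 and 12.8.

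Neither gene was called on any day between treatments, where the quasi-likelihood F-test called 0 genes (0%) of 13926 on d 0, 14078 on d 1, 13949 on d 2 and 13932 on d 7. An unadjusted p under 0.05 was reached by 867, 424, 470 and 3550 genes on d 0, 1, 2 and 7. DESeq2 called 0 genes on the first 3 of these days and 26 on d 7, and the exact test 68, 40, 75 and 865. The exact test called both CDC40 and LRPPRC higher in weaned calves on d 7, among 865 of 13932 genes. So did the quasi-likelihood F-test without calf 1809, where 1136 of 13852 genes were called. Of the 12 fits on d 7 that left out 1 calf, only this 1 called either gene.

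The treatment by day term for d 7, which sets the change from d 0 in weaned calves against that in control calves within calf, was 1.49 (SE 0.41) for CDC40 and 1.39 (SE 0.40) for LRPPRC on the log2 scale. Over 21 alternatives it ran from 1.04 to 1.74 for CDC40 and from 0.88 to 1.62 for LRPPRC. It shares its libraries with the comparisons above. The difference before housing, -0.60 for CDC40 and -0.55 for LRPPRC on d 0, also enters this term. The quasi-likelihood F-test called 0 of 14713 genes (0%) for this term, with 5272 at an unadjusted p under 0.05, and the DESeq2 Wald test called 923, both genes among them. Without the filter on low counts the F-test called 625 of 17536 genes, both genes again among them.

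**Figure D2:**
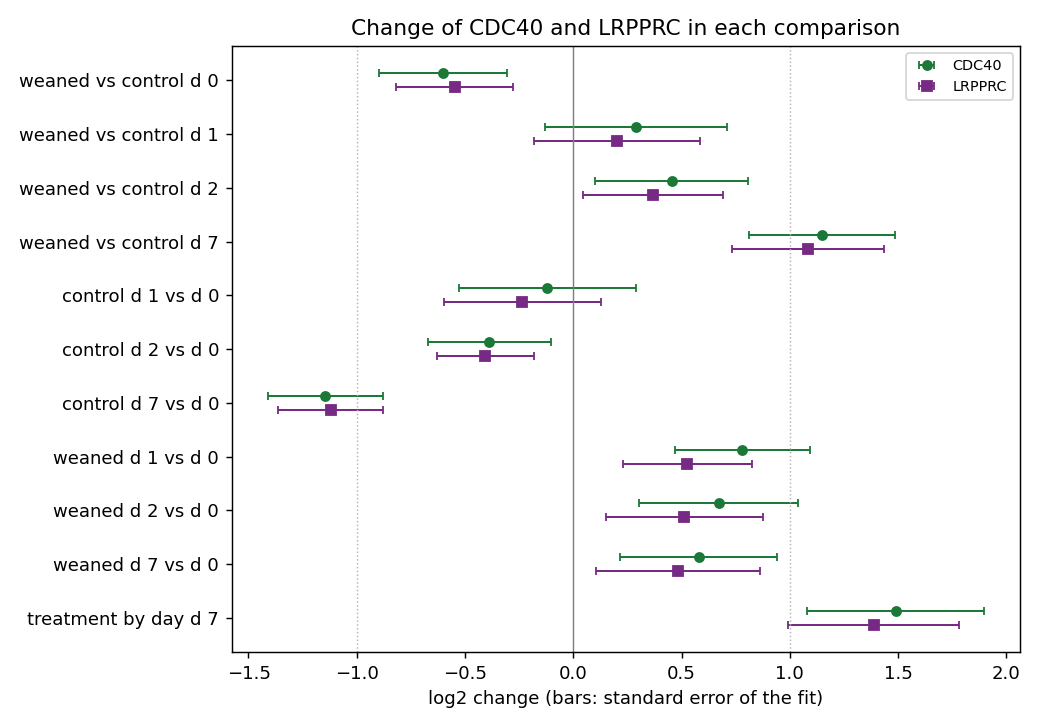
Log2 change of CDC40 (circles) and LRPPRC (squares) in each of the 11 comparisons, with the standard error of the fit as bars and dotted lines at 2-fold. The values of both genes are alike in every comparison, and only control d 7 vs d 0, weaned vs control d 7 and the treatment by day term lie past 2-fold.

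The levels of CDC40 and LRPPRC moved together from library to library. Over the 48 libraries the Pearson correlation of their log2(CPM + 1) was 0.95 (Spearman 0.90), and it was 0.94 after the mean of each group was removed. Without the 2 libraries farthest from the median of CDC40 it was 0.93. Within the 6 flowcells that held 7 libraries each it ran from 0.59 to 0.99. The libraries share calves, flowcells and the scaling, so that they are not independent points. The ratio of LRPPRC to CDC40 reads lay between 1.31 and 2.58 with a median of 1.81, a coefficient of variation of 16.2%, while the CPM of the genes varied 7.71-fold and 8.31-fold. The counts are not per length, so that the ratio says only how constant the pair was and not which gene was expressed more.

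**Figure D3:**
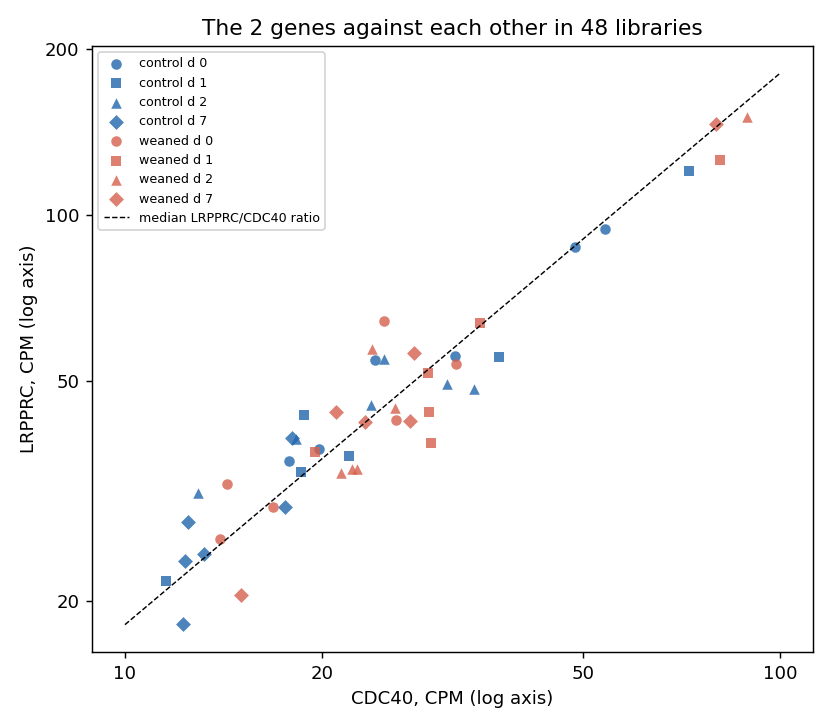
LRPPRC against CDC40 in CPM, both on log axes, 1 point per library, coloured by treatment and shaped by day; the dashed line is the median ratio of 1.81. Points follow the line from the control d 7 libraries at the lower left to weaned calf 1758 on d 2 and d 7 at the upper right.

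Library size was only loosely related to either gene. The correlation of log2(CPM + 1) with log2 of the total count was 0.45 for CDC40 (Spearman 0.52) and 0.43 for LRPPRC (Spearman 0.50) over 48 libraries, and 0.38 and 0.36 after the group means were removed. Without the 2 smallest libraries, both of calf 1759, it was 0.40 and 0.39. Within flowcells of 7 libraries it ran from 0.10 to 0.88 for CDC40 and from -0.10 to 0.88 for LRPPRC. CPM are already relative to the total count, and the largest library, of calf 1758 on d 2, was also the one with the highest level of both genes.

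Both genes followed the make-up of the library more closely than its size. The correlation with the number of genes that had at least 1 count was 0.78 for CDC40 and 0.77 for LRPPRC, and that with the share of counts on the top 1000 genes of the library was -0.76 and -0.77. After the group means were removed these were 0.75 and 0.76 for genes detected and -0.71 and -0.73 for the share. The share ranged from 36.7% in the library of weaned calf 1758 on d 2 to 47.6% in that of control calf 1759 on d 7. The number of genes detected itself depends on the total count, and these are correlations over libraries that share calves.

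**Figure D4:**
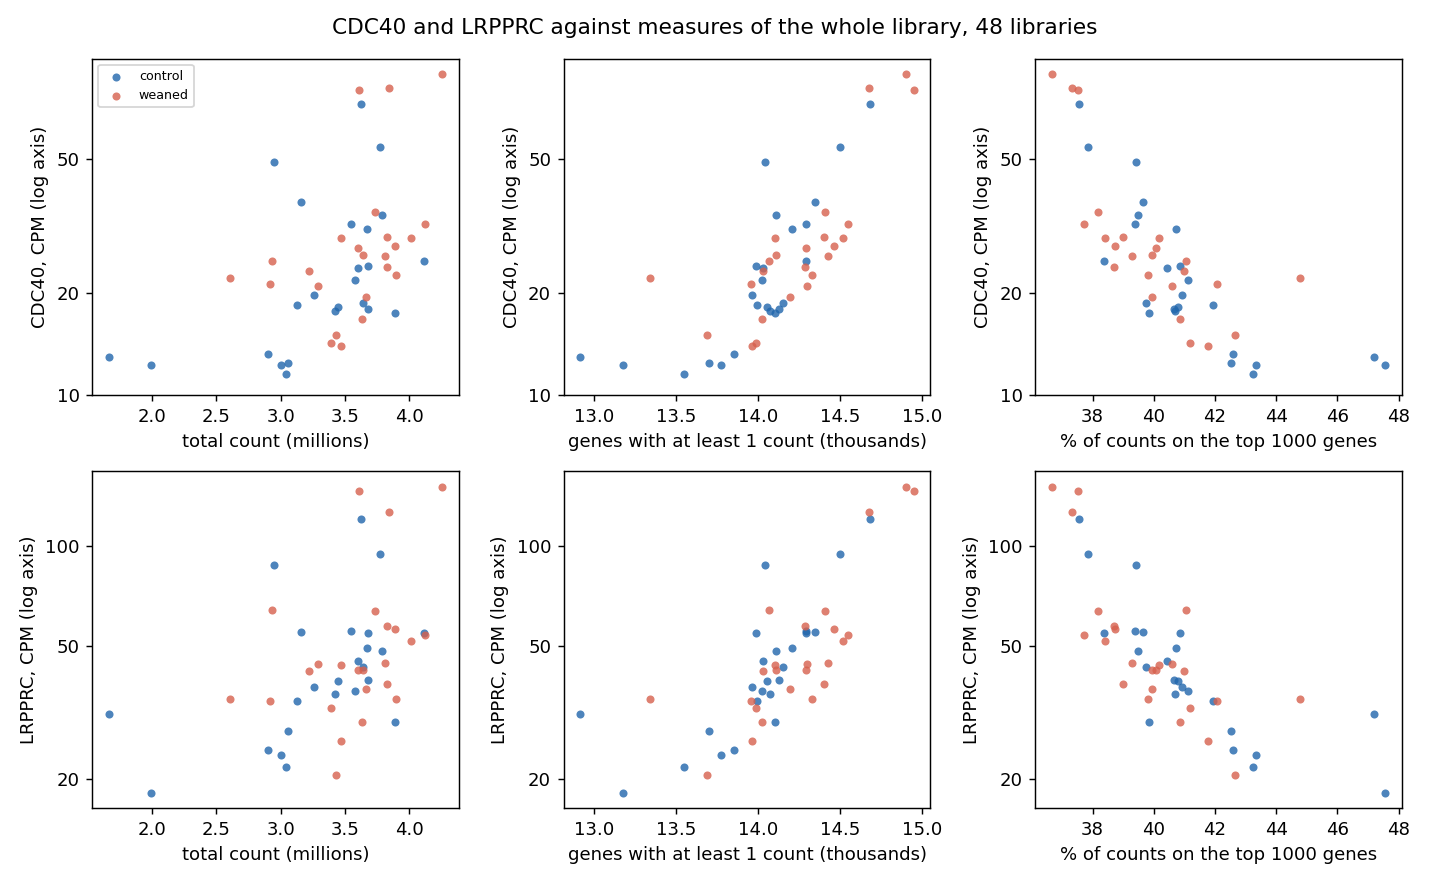
CDC40 (top) and LRPPRC (bottom) in CPM on a log axis against the total count, the number of genes with at least 1 count and the share of counts on the top 1000 genes, 1 point per library, control in blue and weaned in red. The points spread widely over total count (r = 0.45 and 0.43) and form a band over genes detected (r = 0.78 and 0.77) and over the share (r = -0.76 and -0.77).

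The libraries of a group differed widely in both genes. The within-group SD was 0.66 log2 units for CDC40 and 0.65 for LRPPRC. Of the within-group variance 34.7% lay between calves for CDC40 and 37.1% for LRPPRC, and the rest between days of the same calf. Some share lies between calves even where they do not differ, so that it is not read as an effect of the calf. The biological coefficient of variation from edgeR was 0.46 for CDC40 and 0.45 for LRPPRC, where genes of the same abundance had 0.32 and 0.28 by the trend, and 76.4% and 74.4% of 15532 genes had a lower one.

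Many genes shared this pattern. Among 10079 genes with a mean of at least 20 counts per library, 777 (7.71%) correlated with CDC40 at 0.9 or more and 897 (8.90%) with LRPPRC. At 0.8 or more there were 2038 (20.2%) and 2119 (21.0%), and at -0.8 or less 1125 (11.2%) and 1215 (12.1%). LRPPRC was the 60th most similar gene to CDC40, and CDC40 the 154th most similar to LRPPRC. The leading principal component of log2(CPM + 1), with each gene scaled to the same variance, held 48.5% of the variance of 10080 genes. CDC40 correlated with it at 0.96 and LRPPRC at 0.97, and the number of genes detected at 0.82. The 5 most extreme libraries at its upper end were weaned calf 1758 on d 2 and d 7, weaned calf 1773 on d 1 and control calf 1755 on d 1 and d 0, which are also the 5 libraries with the highest CDC40 and LRPPRC.

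Of the genes compared 265 had a symbol. The 5 of them closest to CDC40 were ORC2L (r = 0.97), which belongs to the origin recognition complex of DNA replication, APAF1 (0.96), the core of the apoptosome, TTC37 (0.96), a subunit of the complex that feeds RNA to the cytoplasmic exosome, NCBP1 (0.95), which binds the mRNA cap in the nucleus, and KLHL9 (0.95), an adaptor of a cullin ubiquitin ligase. The 5 closest to LRPPRC were VPS45 (0.97), which acts in vesicle fusion, PRPF38A (0.97), a spliceosome protein, CDC27 (0.96), a subunit of the anaphase-promoting complex, MAP3K7 (0.96), a kinase of cytokine signalling, and COPB1 (0.96), a coat protein of Golgi vesicles. All are r over the 48 libraries.

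The partners of the proteins could mostly not be examined, because 18 of the 240 genes listed for RNA metabolism, mitochondria, ribosomes and cell types could be identified, and only 8 of the 108 on splicing and mitochondrial genes, CDC40 and LRPPRC included. SLIRP, PRPF19, CDC5L, SLU7, PRPF18, DHX38 and DHX8 were not identified and are not analysed here. No member was identified of the lists for the SF3 part of the U2 particle, the U5 and tri-snRNP, nuclear cytochrome c oxidase genes and mitochondrially encoded mRNA. In their place 20 genes of RNA metabolism with a symbol were described, chosen after it was known which genes could be named. Symbols come from tables of genes that the study called on these samples. Neither the direction of these genes nor the number of them past a threshold is thus independent evidence. Shares over all genes are given beside them for scale only.

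In each of the 11 comparisons 15 to 20 of these 20 genes had the sign of CDC40 and LRPPRC. In control d 7 vs d 0 all 20 had a negative log2 change, with a median of -0.94 against 0.05 over all genes, and 16 of them reached an unadjusted p under 0.05, where 21.8% of all genes did so in this direction. Called lower were XPO1, the main nuclear export receptor, with -1.14 (SE 0.22, adjusted p = 0.022 by the quasi-likelihood F-test), PNPT1, a mitochondrial RNA exonuclease, with -1.28 (SE 0.30, adjusted p = 0.022), and NMD3, the export adaptor of the large ribosomal subunit, with -1.17 (SE 0.29, adjusted p = 0.024). Of the 20 genes 3 were thus called, where 515 of all 13829 genes (3.72%) were. None of the 20 was called without calf 1755, 1759 or 1763, with the total count as a covariate, with the flowcell as a block or with all 48 libraries in 1 fit, the fits in which at most 11 of all genes were called. Without calf 1803 there were 14 of the 20, and 1086 of all 13625 genes. Without calf 1789 there were 6 of the 20, and 591 of all 13631 genes. Without calf 1802 there were 8, and 790 of all 13646 genes, and with no scaling factors 11, and 799 of all 13829 genes. PNPT1 averaged 23.8 CPM ± 10.0 on d 0 and 9.62 ± 2.15 on d 7 in control calves (SD, n = 6).

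Among them are a few genes whose proteins work close to CDC40 or LRPPRC. PLRG1, a WD repeat protein of the Prp19 complex, which works with CDC40 in the spliceosome core, had -0.93 (SE 0.24) in control d 7 vs d 0. BCAS2 of the same complex had -0.82 (SE 0.43) at a median of only 1.61 CPM and did not reach an unadjusted p under 0.05. TFB2M, the mitochondrial transcription factor, had -0.88 (SE 0.27). THOC1 and THOC7 of the THO complex, which couples transcription to mRNA export, had -0.94 (SE 0.28) and -0.71 (SE 0.63), of which THOC7, with a median of 1.16 CPM, did not reach an unadjusted p under 0.05. Of the ribosomal protein genes 4 of 75 were identified, of which RPL5 was called lower with -1.57 (SE 0.43), while RPS4X, RPL17 and RPL35A had -0.25 (SE 1.10), -1.07 (SE 0.76) and -0.28 (SE 0.85) at a median of at most 0.64 CPM.

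In weaned vs control d 7 all 20 genes had a positive log2 difference, with a median of 1.01 against 0.03 over all genes. Of them 18 reached an unadjusted p under 0.05, where 17.6% of all genes did so in this direction, and 0 were called. Without calf 1758 there were 12 such genes, where 1735 of all 13718 genes reached an unadjusted p under 0.05 in either direction. In weaned d 7 vs d 0 all 20 were positive with a median of 0.45 and 0 reached an unadjusted p under 0.05, where 1.72% of all genes did. The correlation of the 20 genes with CDC40 over the 48 libraries had a median of 0.92 and ran from 0.56 to 0.96, with 15 of them at 0.8 or more, and the lowest values were those of genes with few counts such as BCAS2, THOC7 and MPHOSPH6.

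**Figure D5:**
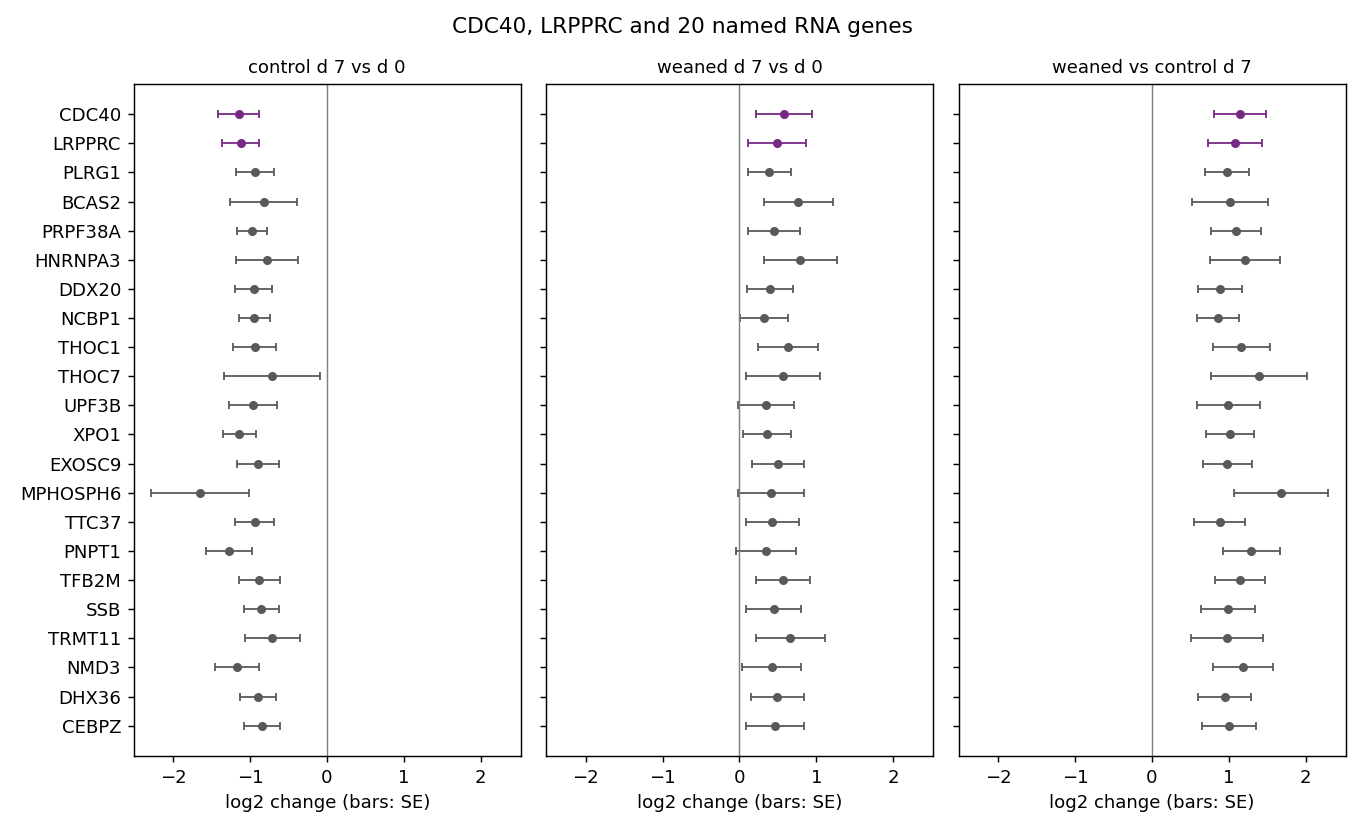
Log2 change of CDC40 and LRPPRC (purple) and of 20 named RNA genes (grey) in control d 7 vs d 0, weaned d 7 vs d 0 and weaned vs control d 7, with standard errors as bars. All 20 lie below 0 in the first panel and above 0 in the other panels, with medians of -0.94, 0.45 and 1.01.

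The calves were sequenced on 8 flowcells, as far as the lane codes of the study could be read. The 3 libraries of the flowcell that held control calf 1755 on d 0, 1 and 2 had CDC40 at 31.0 to 72.6 CPM, and the 3 of the flowcell that held weaned calf 1809 on d 1, 2 and 7 had 15.1 to 25.9 CPM, so that calf and flowcell cannot be told apart for these. The 6 flowcells that held both treatments overlapped in CDC40, with medians of 18.6 to 32.0 CPM. Between d 0 and d 7 control calves 1755, 1759, 1763 and 1789 changed flowcell, as did weaned calves 1773 and 1809. In these control calves CDC40 was 4.09-, 2.61-, 2.78- and 1.44-fold lower on d 7, in that order. Control calves 1802 and 1803 kept their flowcell, and CDC40 was 1.58- and 1.34-fold lower in them. Day and flowcell cannot be told apart within a calf that changed flowcell. The study counted reads with the union model on an Ensembl annotation and does not state whether the strand was used. CDC40 reads could be gained or lost where METTL24 overlaps it in the RefSeq annotation of assembly ARS-UCD2.0, which was not tested. LRPPRC has no overlapping neighbour in that annotation.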

How the data were processed

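Leukocyte mRNA was sequenced in 48 libraries as single 36 bp reads. The authors aligned the reads to Btau4.0 with Bowtie 0.12.7 without mismatches, discarded reads with several alignments, kept 1 read per genomic position, which caps the reads of short, abundant genes, and deposited raw counts per Ensembl gene made with HTSeq 0.4.6p2. Symbols for 643 identifiers came from human orthologs in the study's tables, and DIS3 was left out because 2 identifiers carry that name.

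The F-test was run in R 4.3.3 with edgeR 4.0.16, TMM factors and genes with a summed count of 10 or more, with SE from the F statistic. Each comparison used its own 12 libraries without a block, and the treatment by day term 24 with the calf as a block. Levels used TMM factors over 48 libraries and, for logs, a pseudocount of 1 CPM. DESeq2 was version 1.42.0. The procedures were tested on simulated data, and figures were drawn with matplotlib 3.10.9. Total counts of 1662995 to 4256011 put 1 read below 1 CPM, which covers counting error only.

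The members and the gene lists were chosen with earlier results of these data known. Genes named are CDC40, LRPPRC, identified list members, 20 RNA genes and the 5 most similar genes with a symbol for each. Libraries of a calf are paired by animal, per the labels. The correlation of a calf's deviations between d 0 and a later day averaged 0.22 to 0.50 and was negative for 4 of 36 pairs. Flowcells came from the lane codes in the study's tables, whose sample numbers were assumed to follow the order of the blood samplings, since no key is given, and every flowcell result rests on this. Alternatives were RLE or no scaling factors, other filters and tests, the total count, flowcell or calf in the model, all 48 libraries in 1 fit and each calf left out in turn.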

Additional observations from a re-analysis of the deposited data

Results flagged for a closer look

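In a group of 6 calves a library is listed here when its gap to the nearest other library, as a share of the range of the group, exceeds Dixon's 95% critical value. For normally distributed values chance alone lists about 1 in 20 groups. The CPM were taken without a log, which favours a high library. Both genes were chosen from these counts, so that the list is a description and no rate is read from it. Of the 16 groups of 6 formed by the genes, treatments and days, 7 were listed, and in all 7 the library in question was the highest one. For CDC40 these were weaned calf 1773 on d 1 with 81.0 CPM (gap over range 0.75), weaned calf 1758 on d 2 with 89.2 CPM (0.933) and weaned calf 1758 on d 7 with 79.8 CPM (0.806). For LRPPRC they were control calf 1755 on d 1 with 120.1 CPM (0.659), weaned calf 1773 on d 1 with 126.0 CPM (0.699), weaned calf 1758 on d 2 with 150.6 CPM (0.801) and weaned calf 1758 on d 7 with 146.2 CPM (0.716). The genes share these libraries, so that the 7 are not independent of each other.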

How the results depend on the processing

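Leaving out 1 calf at a time, the number of genes called ran from 0 to 1086 in control d 7 vs d 0 and from 0 to 1136 in weaned vs control d 7 and stayed at 0 in the other comparisons. The log2 changes of CDC40 and LRPPRC moved by less than their within-group SD for all 192 such values. This SD is that of single libraries and exceeds every SE given for a change of these genes, so that it is a wide limit. Within it still fall changes that rested on 1 calf, such as CDC40 in weaned d 2 vs d 0 (0.67, and 0.02 without calf 1758). The sign changes between treatments on d 1 and d 2 fall within it too. In control d 7 vs d 0 other settings called 799 (total counts only), 0 (log2 total count as a covariate), 1 (all 48 libraries in 1 fit) and 11 genes (flowcell as a block), against 515. With a common dispersion the exact test found 68, 40, 75 and 865 genes in weaned vs control on d 0, 1, 2 and 7, 18 in control d 2 vs d 0 and 64, 62 and 38 in weaned d 1, d 2 and d 7 vs d 0, against 0. DESeq2 called 26 in weaned vs control d 7, 1 each in weaned d 1 and d 7 vs d 0 and 923 for the treatment by day term, which without a filter had 625. The cause of these differences was not tested.

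Of the other 214 values of the log2 changes 2 moved by more than the within-group SD. CDC40 in weaned vs control d 1 was 0.97 with the flowcell as a block, and LRPPRC in weaned d 7 vs d 0 was -0.21 without calves 1758 and 1770. With the calf as a replicate block 2 genes were called in weaned d 1 vs d 0, and no other number of genes called changed by more than 1.5 times under the paired fits. The d 7 libraries of calves 1758 and 1770 were also exchanged in the replicate block. This alternative was chosen with earlier results of these data known and is not a sign of a mix-up. In it 0 genes were called, and the weaned d 7 vs d 0 change was 0.41 for CDC40 and 0.28 for LRPPRC. The main fit, with 0.58 and 0.48, had no block, so that the exchange alone does not make the difference. The mean log2 change over the calves, 0.44 and 0.31, is the same under either pairing. Nothing is therefore read from the exchange. With other scaling factors, a pseudocount of 0.5 or 1 calf left out, the correlations with library size over all libraries stayed between 0.43 and 0.51 for CDC40 and between 0.41 and 0.48 for LRPPRC. With 19 reads in the smallest CDC40 library, counting error limits single libraries, and the spread between libraries limits the groups.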
